A study of Mus musculus with 17 samples.

Results

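The mitochondrial ribosomal protein genes were taken as every row of the count tables whose symbol is Mrpl or Mrps followed by a number, with or without a closing letter a or b. This gave 77 of 24594 genes, 49 named for the large subunit (Mrpl) and 28 named for the small subunit (Mrps). The symbols were the only criterion for membership, though the set was chosen with earlier results of these data known. All 77 passed the filter on low counts that left 13881 genes for testing.

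Mitochondria carry their own ribosome, which translates the few proteins encoded by the mitochondrial genome, all of them core subunits of the respiratory chain and the ATP synthase. Its RNAs come from the mitochondrial genome, whereas all its proteins are encoded in the nucleus, translated in the cytosol and imported. In T cells, activation and proliferation are known to be accompanied by mitochondrial biogenesis, and mitochondrial translation is needed for full cytotoxic function. Part of the proteins descend from bacterial ribosomal proteins and the rest were added during the evolution of mitochondria. Of the 77, 47 were counted here as having a bacterial homologue and 30 as having none. Mrps18a and Mrps18b were counted among the 47, as versions of the S18 protein. The letter in a symbol is not always a guide to the place of the protein: Mrps30 and Mrps18a sit in the large subunit, and Mrps36 is now regarded as a component of the alpha-ketoglutarate dehydrogenase complex.

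RNA-seq counts came from 17 libraries of mouse spleen CD8 T cells of the genotype CD8+Thy1.1+. The genetic modification label gave 5 control libraries (Rosa KO) and 4 libraries for each of 3 knockouts, Asxl1 KO, Tet2 KO and Dnmt3a KO. Tet2 is an oxidase of methylated cytosine, Dnmt3a a de novo DNA methyltransferase and Asxl1 a partner of the Polycomb deubiquitinase. By its title the series is about the role of such clonal hematopoiesis genes in CD8 T cell stemness during immunotherapy. All groups share the tissue, the cell type and the Thy1.1 marker, while the sources used here do not give strain, age, treatment, time or the way the genes were targeted. The labels do not tie replicates to separate mice or cultures, and each p-value therefore rests on a spread between libraries that may be technical alone. The library numbers fell into 3 blocks, called runs here, which the labels do not call batches. Run 1 held Rosa KO 1, Asxl1 KO 1 and Dnmt3a KO 1 and 2. Run 2 held Asxl1 KO 2, Dnmt3a KO 3 and 4 and Tet2 KO 1 and 2, with no Rosa KO library. Run 3 held Rosa KO 2 to 5, Asxl1 KO 3 and 4 and Tet2 KO 3 and 4, with no Dnmt3a KO library.

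The sequence upstream of the start is shown for 7 of the genes that the results below turn on, chosen with their values known, since this is where regulators of nuclear genes of mitochondrial proteins bind. Each line gives the 150 bases before the RefSeq start on GRCm38.p6 (mm10), read 5′ to 3′ on the gene's strand. Capitals mark the letters of the motifs of 2 factors known to act on nuclear genes of mitochondrial proteins, NRF1 (GCGC and TGCGC with 1 free base between them) and the ETS family that includes Gabpa (CCGGAAG), on either strand. The Mrpl27 stretch reaches into the annotated gene and the Mrpl45 stretch lies within it, as both annotated genes begin further upstream.
Mrpl33 (chr5:31613801-31613950, plus strand): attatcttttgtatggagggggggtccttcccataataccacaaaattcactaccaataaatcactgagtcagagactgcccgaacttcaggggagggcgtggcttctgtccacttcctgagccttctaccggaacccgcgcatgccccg
Mrps7 (chr11:115603990-115604139, plus strand): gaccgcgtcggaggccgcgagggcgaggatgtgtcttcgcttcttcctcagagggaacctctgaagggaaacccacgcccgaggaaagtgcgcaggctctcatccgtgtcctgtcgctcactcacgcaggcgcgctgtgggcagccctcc
Mrpl30 (chr1:37890327-37890476, plus strand): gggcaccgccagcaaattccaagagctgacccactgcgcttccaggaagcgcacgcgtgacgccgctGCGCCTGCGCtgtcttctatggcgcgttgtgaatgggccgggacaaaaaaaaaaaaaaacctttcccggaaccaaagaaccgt
Mrpl27 (chr11:94653641-94653790, plus strand): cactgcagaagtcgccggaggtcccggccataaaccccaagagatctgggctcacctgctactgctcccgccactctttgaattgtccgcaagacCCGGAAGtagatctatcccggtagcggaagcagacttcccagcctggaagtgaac
Mrpl45 (chr11:97315566-97315715, plus strand): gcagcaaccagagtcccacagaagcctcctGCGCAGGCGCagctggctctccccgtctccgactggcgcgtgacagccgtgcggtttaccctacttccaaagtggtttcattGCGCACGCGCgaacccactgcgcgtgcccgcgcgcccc
Mrps9 (chr1:42851083-42851232, plus strand): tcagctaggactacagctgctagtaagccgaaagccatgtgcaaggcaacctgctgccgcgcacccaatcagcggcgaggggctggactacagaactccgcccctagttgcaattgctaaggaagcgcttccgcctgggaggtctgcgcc
Mrpl52 (chr14:54426759-54426908, plus strand): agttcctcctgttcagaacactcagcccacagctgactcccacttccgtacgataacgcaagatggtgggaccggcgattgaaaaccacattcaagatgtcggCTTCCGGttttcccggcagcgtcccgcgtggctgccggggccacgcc

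Motif letters were searched on both strands over a window from 250 bases before to 50 bases after the start. RefSeq windows were matched for 68 of the 77 genes (Mrpl4, Mrpl13, Mrpl15, Mrpl19, Mrpl38, Mrpl54, Mrps28, Mrps34 and Mrps35 had no entry). The NRF1 letters stood in 13 of the 68 windows (19.1%), against 10.9% of the windows of tested genes. ETS letters were in 25 windows (36.8%, against 19.4%) and the YY1 letters AAGATGGC in 12 (17.6%, against 5.09%). The E-box CACGTG, which Myc and other factors bind, was in 4 windows (5.88%, against 11.2%). The ETS letters end and the YY1 letters begin with AAG, so 1 stretch can hold both. In the whole window Mrpl33 also held ETS letters, Mrps7 YY1 letters and Mrps9 NRF1 letters, in each case outside the stretch printed above. These matches describe the letters only.

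The shallowest library held 6625833 counts (Rosa KO 5) and the deepest 40701203 (Rosa KO 4), and the 77 genes took 0.158 to 0.334% of them. RNA of the targeted genes does not check the labels, since each differed little from Rosa KO in its own knockout (log2 fold changes −0.13 for Asxl1, −0.06 for Dnmt3a and −0.26 for Tet2), and an edited gene can keep its RNA. All 10 T cell markers looked up were present in every library. They were Cd8a and Cd8b1 of CD8 T cells and the general T cell genes Cd3e, Cd3d, Cd3g, Thy1, Cd2, Cd28, Lat and Zap70. Their sum was 4867 to 12576 CPM (counts scaled to the library total). Markers of B cells were present too. The sum over 18 B cell genes, none of them at 0 in any library, was lowest in Tet2 KO 2 (196 CPM) and highest within run 3 in Rosa KO (3771 to 4059 CPM). These are bulk samples, so fewer cells of a type and less RNA per cell cannot be told apart.

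Levels of the 77 genes covered a wide range. CPM were scaled by the trimmed mean of M values (TMM), and levels are compared between genes per kilobase (kb) of exonic length. The median gene stood at 17.3 CPM per kb and 55 of the 77 were at 10 or more. Mrpl33, a small protein of the large subunit, was highest at 151 ± 43.7 CPM per kb (mean ± SD over the 17 libraries). Mrpl52, which has no bacterial homologue, followed at 143 ± 82.1 CPM per kb, and these 2 did not differ beyond their spread. Next in level were Mrps21 at 92.6 ± 41.1, Mrpl18 at 86.4 ± 25.02 and Mrpl30 at 80.1 ± 30.6 CPM per kb, again within each other's spread. At the low end stood Mrpl53 (1.11 ± 1.66), Mrps25 (3.28 ± 1.71) and Mrps34 (3.40 ± 2.77). Exonic length joins the exons of all annotated transcripts and for some genes exceeds the RefSeq gene body, which lowers the level per kb. Mrps26 has 4278 exonic bases in a gene body from 130563757 to 130565394 on chromosome 2. Before division by length, Mrps25 (6073 exonic bases) averaged 19.9 CPM. Mrpl53 had no count in Dnmt3a KO 1 and Asxl1 KO 1, and Mrps34 none in Asxl1 KO 1. Genes named for the large subunit and for the small subunit had like medians (17.8 and 16.7 CPM per kb), as did genes with and without a bacterial homologue (18.7 and 15.7).

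Summed over the 77 genes, the level was lowest on average in run 2, and in run 3 it was higher in both knockouts than in Rosa KO. In run 2, with no Rosa KO library, the Tet2 KO libraries were highest and Asxl1 KO 2 lay between the Dnmt3a KO libraries. In run 1 the sum was 1940 CPM in Rosa KO 1, 2113 and 2221 CPM in Dnmt3a KO 1 and 2 and 3110 CPM in Asxl1 KO 1. In run 2 it was 1665 CPM in Asxl1 KO 2, 1465 and 1831 CPM in Dnmt3a KO 3 and 4, and 1963 and 1869 CPM in Tet2 KO 1 and 2. In run 3 it was 2624, 2538, 2345 and 2144 CPM in Rosa KO 2 to 5, 3175 and 3010 CPM in Asxl1 KO 3 and 4, and 3426 and 3059 CPM in Tet2 KO 3 and 4. The 5 libraries of run 2 lay low whatever their group, together with Rosa KO 1 of run 1, and in run 3 all 4 knockout libraries lay above all 4 Rosa KO libraries. Within run 3 the mean sum was 1.34 times that of Rosa KO in Tet2 KO and 1.28 times in Asxl1 KO. Leaving out 1 library at a time gave 1.27 to 1.42 and 1.24 to 1.32. Within run 1 Asxl1 KO 1 held 1.60 times the sum of Rosa KO 1, a comparison of single libraries, and Dnmt3a KO 1.12 times. For the Mrpl genes every run 2 library lay below every library of the other runs, while for the Mrps genes Rosa KO 1 lay among the run 2 libraries.

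**Figure D1:**
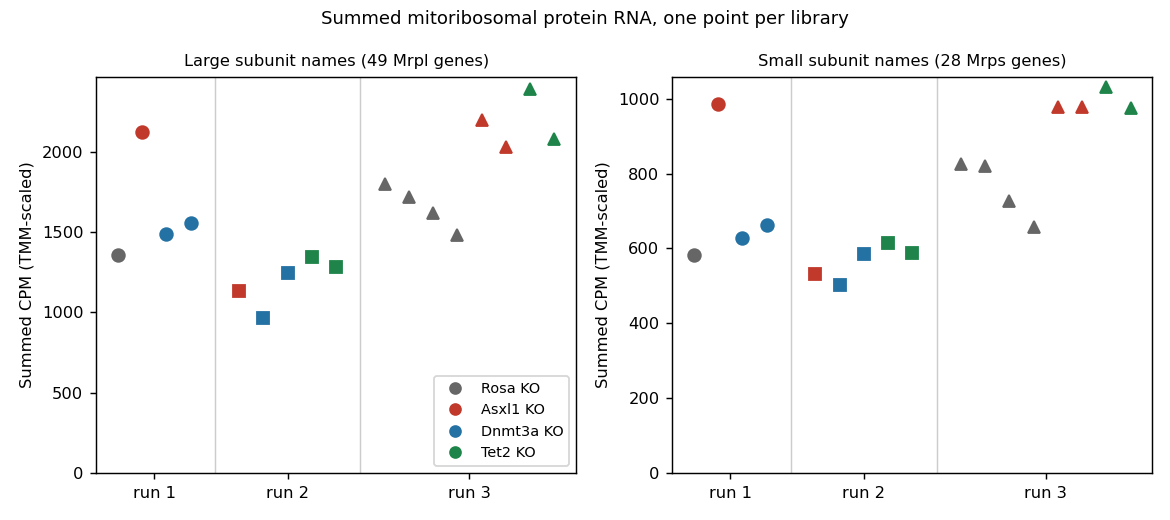
Summed CPM (TMM-scaled, vertical axis from 0) of the 49 Mrpl genes (left) and the 28 Mrps genes (right), one point per library, coloured by group and arranged by run. Run 2 libraries lie low in both panels together with Rosa KO 1, and in run 3 the Asxl1 KO and Tet2 KO libraries lie above the 4 Rosa KO libraries.

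Run taken alone went with a larger share of the spread of these genes than group taken alone. These shares overlap, as the groups were unevenly spread over the runs, and a part of each arises without any difference. The median share of variance in log2 CPM was 37.8% for run alone and 20.1% for group alone, against 25.6% and 19.0% over all tested genes. The run share was above the group share in 58 of the 77 genes (75.3%, against 58.9% of all tested genes). Mrps12, a protein of the decoding centre, had the highest run share at 77.2%. Mrpl33 had the highest group share at 55.9%, followed by Mrpl27 at 48.6%, whose run share was 0.301%. All comparisons below therefore carry run as a term beside group, in edgeR's quasi-likelihood test over all 17 libraries with Benjamini-Hochberg adjustment over the 13881 genes, with a threshold of 0.05 on the adjusted p. All 3 knockouts were compared with the same Rosa KO libraries.

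**Figure D2:**
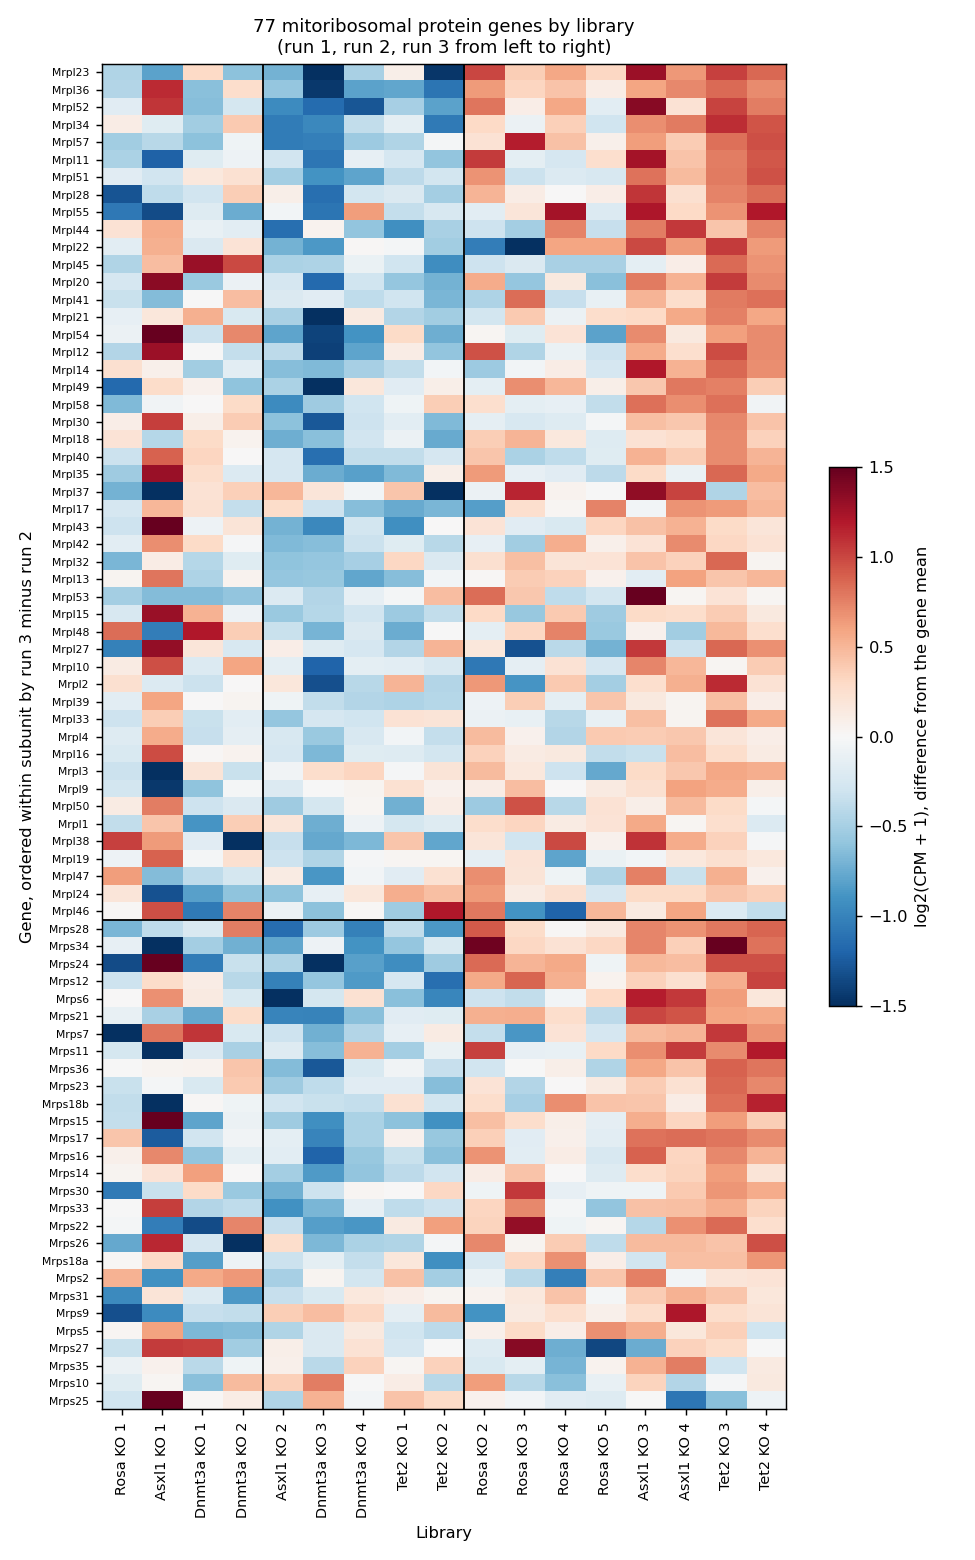
Log2(CPM + 1) of the 77 genes (rows, Mrpl above and Mrps below the line) in the 17 libraries (columns, runs 1, 2 and 3 from the left), as the difference from each gene's mean, with colours saturating at the ends of the scale. Most rows are blue across the 5 run 2 libraries and red in Tet2 KO 3 and 4, and Asxl1 KO 1 of run 1 holds dark cells of both colours.

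The comparison of Tet2 KO with Rosa KO asked which of the genes differ when Tet2 is targeted. Mrpl33 was the only one of the 77 that passed, and it was called higher. It encodes bL33m of the large subunit (NCBI gene 66845, chromosome 5, 31613951 to 31622644, plus strand). Most of the other genes had positive values that did not pass singly. In numbers, 1 of 77 was called higher and 0 lower, where 0.987% of all tested genes were called higher and 0.483% lower. The share of the 77 called was thus near that of all tested genes. Of the 77 fold changes 69 were above 0, with a median of 0.41 on the log2 scale, where 48.4% of all tested genes were above 0 and their median was −0.02. The unadjusted p was under 0.05 in 14 genes (18.2%, against 12.2% of all tested genes). Run 3 was the only run with both groups, and Tet2 KO 1 and 2 had no Rosa KO library in their run. With no run term the median was 0.16.

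Mrpl33 stood at 55.8, 65.6, 64.2, 51.8 and 64.5 CPM in Rosa KO 1 to 5 and at 81.3, 80.0, 123 and 104 CPM in Tet2 KO 1 to 4. All 4 Tet2 KO libraries lay above all 5 Rosa KO libraries, and the 2 from run 3 were the highest. The log2 fold change was 0.88 ± 0.21 (SE, adjusted p = 0.0295 by edgeR with Benjamini-Hochberg adjustment). Within run 3 alone it was 0.88 (adjusted p = 0.0293). The call did not hold with no run term (0.68, adjusted p = 0.559) or with only the libraries of the 2 groups (0.87, 0.0585). It was also lost without Tet2 KO 1 (adjusted p = 0.0534), Tet2 KO 3 (0.308), Tet2 KO 4 (0.103), Rosa KO 4 (0.0720), Rosa KO 5 (0.0637) or Dnmt3a KO 2 (0.0516). Over all 27 alternatives the log2 fold change ran from 0.68 to 0.95 and the adjusted p from 0.00348 to 0.559. Mrpl33 passed in 18 of the 27.

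Mrps7, a protein of the head of the small subunit, came next in Tet2 KO. Its level was 5.75, 15.1, 10.2, 22.8 and 16.3 CPM in Rosa KO 1 to 5 and 17.9, 21.3, 42.01 and 31.9 CPM in Tet2 KO 1 to 4. The highest Rosa KO library lay above the 2 Tet2 KO libraries of run 2, so the groups overlapped. The log2 fold change was 1.499 ± 0.39 (SE), and its adjusted p by edgeR of 0.0541 missed the threshold. The gene bodies of Gga3 and Mif4gd overlap Mrps7 on the other strand, and the sources used here do not give whether counting used the strand. By edgeR it passed when Asxl1 KO 1 (1.48, adjusted p = 0.0294) or Rosa KO 4 (1.73, 0.0433) was left out. Within run 3 the fold change was 1.20.

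Others near the threshold in Tet2 KO were Mrpl45, which lies at the exit of the polypeptide tunnel, Mrps36, Mrpl30 and Mrpl27, which reaches to the peptidyl transferase centre. Mrpl45 was at 12.8 to 13.8 CPM in the higher 2 and 11.2 to 11.5 CPM in the lower 3 Rosa KO libraries, against 12.9, 8.005, 29.9 and 26.3 CPM in Tet2 KO 1 to 4. Only its run 3 libraries lay above Rosa KO, and the log2 fold change was 1.11 ± 0.34 (SE, edgeR adjusted p = 0.119). Mrps36 was at 27.3, 22.4, 27.5, 29.3 and 19.8 CPM in Rosa KO and at 26.5, 21.3, 51.6 and 48.6 CPM in Tet2 KO, with a log2 fold change of 0.96 ± 0.29 (adjusted p = 0.119). Again the difference lay with the run 3 libraries. Mrpl30 was at 0.71 ± 0.22 (adjusted p = 0.123) and Mrpl27 at 1.34 ± 0.42 (0.129). DESeq2, with the same terms, called 4 genes higher in Tet2 KO (5.19%, against 2.98% of all genes called either way): Mrpl33, Mrps7, Mrpl45 and Mrps36.

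**Figure D3:**
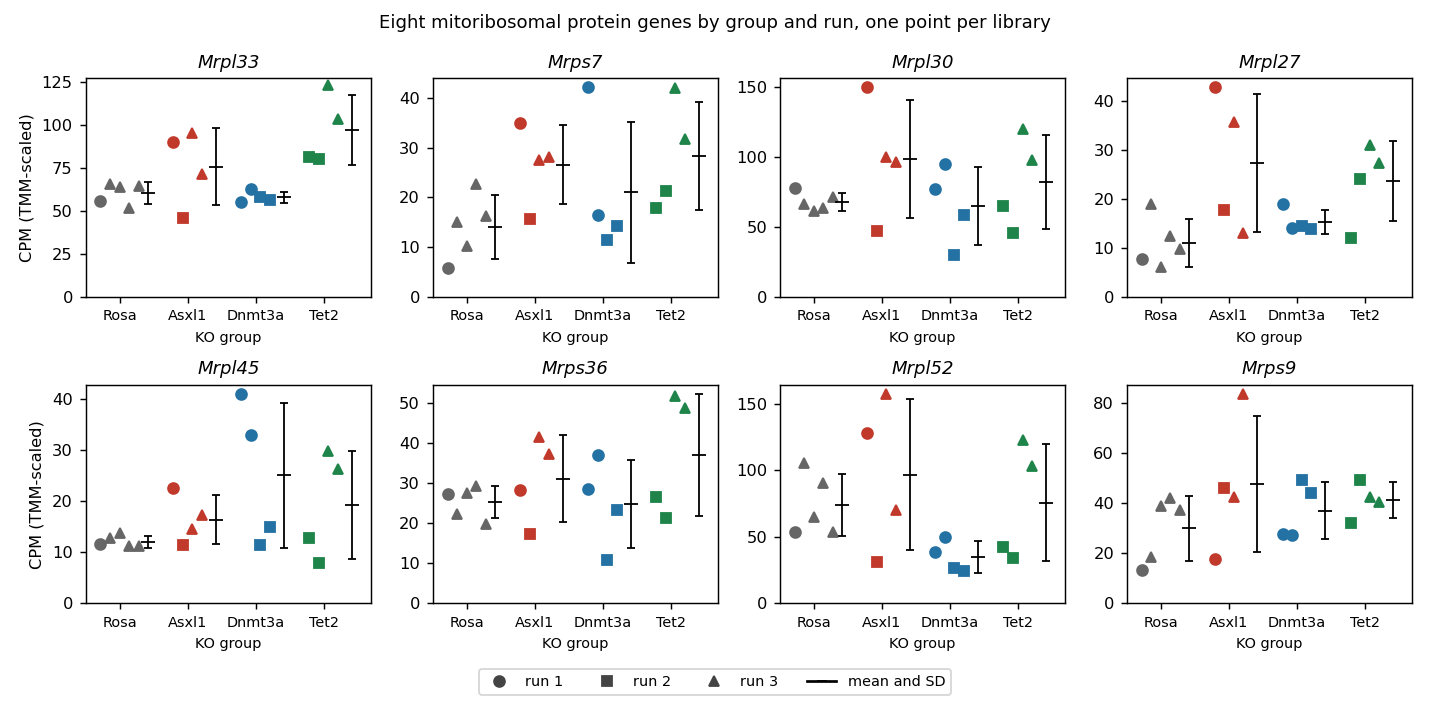
CPM (TMM-scaled, vertical axes from 0) of 8 mitochondrial ribosomal protein genes in each library, by group, with the symbol giving the run and the bar the mean and SD of the group. Mrpl33 is the panel in which all Tet2 KO points lie above all Rosa KO points, and in the Mrpl52 panel the run 2 squares lie low in each group that has them.

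The same comparison was made for Asxl1 KO. None of the 77 genes passed, and most had positive values. By edgeR 0 of 77 were called, where 0.814% of all tested genes were called higher and 0.821% lower. The unadjusted p was under 0.05 in 19 of the 77 (24.7%, against 15.7% of all tested genes). DESeq2 called 2, Mrpl27 and Mrps7 (2.60%, against 4.84% of all genes). Of the 77 fold changes 66 were above 0, with a median of 0.37 on the log2 scale against 0.00 over all tested genes. Values ran from −0.91 (Mrps34, SE 0.95) to 1.44 (Mrpl27).

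Mrpl27 (gene 94064, chromosome 11, 94653770 to 94661932, plus strand) had the smallest p. It stood at 7.74, 18.9, 6.11, 12.3 and 9.82 CPM in Rosa KO 1 to 5 and at 42.8, 17.8, 35.7 and 13.1 CPM in Asxl1 KO 1 to 4. Asxl1 KO 1 and 3 were high, and the other Asxl1 KO libraries lay within the Rosa KO range. The log2 fold change was 1.44 ± 0.42 (SE, edgeR adjusted p = 0.0807). Leaving out Asxl1 KO 4 (1.81, adjusted p = 0.0395) or Rosa KO 2 (1.69, 0.0420) brought it past the threshold. Within run 3 it was 1.05 and within run 1, with 1 library each, 2.46. The gene Eme1 overlaps Mrpl27 on the other strand.

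Mrps7 had a log2 fold change of 1.22 ± 0.39 in Asxl1 KO (SE, edgeR adjusted p = 0.108), with 34.9, 15.7, 27.6 and 28.2 CPM in Asxl1 KO 1 to 4. Asxl1 KO 2, from run 2, was the only one of them within the Rosa KO range. Mrpl30 stood at 77.7, 66.2, 61.5, 63.8 and 71.3 CPM in Rosa KO 1 to 5 and at 150, 47.2, 100 and 96.6 CPM in Asxl1 KO 1 to 4. Asxl1 KO 2 lay below every Rosa KO library and the other 3 above, and the log2 fold change with run in the model was 0.65 ± 0.21 (adjusted p = 0.115). Mrpl20, the homologue of bacterial bL20 (1.04 ± 0.35, adjusted p = 0.126), Mrpl40 (0.77 ± 0.27, 0.140) and Mrps9 (0.74 ± 0.28, 0.183) were the next in order. Mrps9 was at 17.9, 46.0, 42.6 and 83.5 CPM in Asxl1 KO 1 to 4 and at 13.5 to 42.1 CPM in Rosa KO, so the groups overlapped.

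A simpler reading of run 3 asked in how many genes both libraries of a knockout lay above all 4 Rosa KO libraries. For Tet2 KO this held in 23 of 77 genes (29.9%), against 13.5% of all tested genes, and no gene had both libraries below all Rosa KO libraries (10.6% of all tested genes did). Of the 23, 16 were named for the large subunit, among them Mrpl33, Mrpl27, Mrpl30, Mrpl45, Mrpl36 and Mrpl54, and 7 for the small subunit, among them Mrps7, Mrps36, Mrps18b and Mrps24. For Asxl1 KO it held in 18 genes (23.4%, against 14%), 10 of them Mrpl and 8 Mrps, and again none lay below (12% of all tested genes did). Mrpl33 (95.3 and 71.4 CPM), Mrps7, Mrpl30, Mrps6 and Mrps9 were among these. This rule was chosen after the count tables were seen, and genes that share libraries are not independent of one another.

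For the comparison of Dnmt3a KO with Rosa KO, run 1 was the only run that held both, with 1 Rosa KO library. No gene of the 77 passed, and the values were spread around a small positive median. By edgeR 0 of 77 were called, where 0.036% of all tested genes were called higher and 0.18% lower. The unadjusted p was under 0.05 in 5 of the 77 (6.49%, below the 8.03% of all tested genes). DESeq2 called 1, Mrpl45 (1.30%, against 1.1% of all genes). Of the fold changes 51 were above 0, with a median of 0.16. With no run term the median turned to −0.28, and without Dnmt3a KO 4 it was 0.039. Mrpl45 had the smallest p, with 41.1, 32.9, 11.4 and 15.01 CPM in Dnmt3a KO 1 to 4 against 11.2 to 13.8 CPM in Rosa KO. The 2 libraries of run 1 were far above and the 2 of run 2 near the Rosa KO range, and the log2 fold change was 1.38 ± 0.41 (SE, edgeR adjusted p = 0.233). Mrps9 (0.90 ± 0.34, adjusted p = 0.457), Mrps7 (1.18 ± 0.48, 0.496), Mrps23 (0.63 ± 0.29, 0.600), Mrpl58, which releases peptides from stalled ribosomes (0.68 ± 0.33, 0.613), and Mrpl41 (0.71 ± 0.36, 0.642) followed. Mrpl33 was close to Rosa KO in every Dnmt3a KO library, at 54.9, 62.5, 58.3 and 56.5 CPM.

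Between knockouts 0 of the 77 genes passed in any of the 3 pairs, by edgeR or by DESeq2, which called 1.28%, 1.57% and 0.532% of all genes in the order below. For Asxl1 KO against Tet2 KO the median log2 fold change was −0.11 with 34 of 77 above 0, where 0.447% and 0.115% of all tested genes were called higher and lower and 1 of the 77 had an unadjusted p under 0.05 (1.30%, against 7.21% of all tested genes). That median turned to 0.11 with no run term and to 0.034 without Asxl1 KO 2. The gene at that level was Mrpl33 at −0.45 ± 0.21 (SE, adjusted p = 0.651), followed by Mrpl24 (−0.59), Mrpl57 (−0.57) and Mrps18b (−0.85). For Asxl1 KO against Dnmt3a KO the median was 0.20 with 50 above 0 (0.274% and 0.0792% of all tested genes called, and 9 of the 77, 11.7%, at an unadjusted p under 0.05, near the 11% of all tested genes). That median was 0.55 with no run term, 0.071 without Asxl1 KO 1, 0.31 without Dnmt3a KO 4 and 0.34 without Asxl1 KO 2. Mrpl52 (0.88 ± 0.29, adjusted p = 0.250), Mrps16 (0.82, 0.261), Mrps24 (1.52, 0.265) and Mrps26 (1.14, 0.273) had the smallest p. Mrps24 stood at 84.8 CPM in Asxl1 KO 1 and at 4.89 to 33.4 CPM in all other libraries. Without Asxl1 KO 1 the fold change was 0.16 for Mrps24 and 0.56 for Mrps26. For Dnmt3a KO against Tet2 KO the median was −0.27 with 17 above 0 (0.0216% and 0.072% of all tested genes called, and 5 of the 77, 6.49%, at an unadjusted p under 0.05, against 5.6% of all tested genes). With no run term that median was −0.52. Mrpl33 (−0.64 ± 0.22, adjusted p = 0.621), Mrpl52 (−0.78), the stalk protein Mrpl12 (−1.03) and Mrpl54 (−1.11) led there.

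The differences of run 2 from runs 1 and 3 were larger than those of the knockouts from Rosa KO and reached many genes. From run 2 to run 3, with group in the model, 26 of the 77 genes rose and 0 fell, where 6.49% of all tested genes were called higher and 5.57% lower. In all 73 of 77 fold changes were above 0 and the median was 0.83 on the log2 scale (0.02 over all tested genes). Both kinds of name took part, with 17 of 49 Mrpl genes and 9 of 28 Mrps genes called and medians of 0.82 and 0.88. So did genes with a bacterial homologue (17 of 47, median 0.89) and without (9 of 30, median 0.78). Without Tet2 KO 2 the count was 12 and without Tet2 KO 3 it was 15, and with the mean of the B cell markers as a covariate it was 16.

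Mrpl52 (gene 68836, chromosome 14, 54426909 to 54429750, plus strand) had the smallest p of this comparison. It stood at 30.8 CPM in Asxl1 KO 2, 26.5 and 24.1 in Dnmt3a KO 3 and 4 and 42.4 and 34.1 in Tet2 KO 1 and 2, the libraries of run 2. In run 3 it was at 106, 64.8, 90.7 and 53.9 CPM in Rosa KO 2 to 5, 157 and 70.2 in Asxl1 KO 3 and 4 and 123 and 103 in Tet2 KO 3 and 4. No run 2 library reached the level of any run 3 library. The log2 fold change was 1.55 ± 0.27 (SE, edgeR adjusted p = 0.000336). Mrpl36, the homologue of bacterial bL36 (1.58 ± 0.31, adjusted p = 0.00114), Mrpl57 (1.38 ± 0.28, 0.0013) and Mrpl18, which sits in the central protuberance (0.92 ± 0.19, 0.00202), came next. Mrpl57 and Mrpl18 overlap Ska3 and Tcp1. Among the small subunit names Mrps28 (1.90 ± 0.41, 0.00246) and Mrps14 (0.88 ± 0.21, 0.00611) rose, and these 2 were named after their values were seen.

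From run 1 to run 2, 15 of 77 genes fell and 1 rose, where 8.46% of all tested genes were called lower and 7.09% higher, and the median was −0.53. Mrpl30 fell by 1.22 ± 0.22 on the log2 scale (SE, edgeR adjusted p = 0.000353), Mrpl52 by 1.18 ± 0.27 (0.00353), Mrpl54 by 1.75 ± 0.42 (0.00543) and Mrps14 by 0.90 ± 0.22 (0.00597). The riser was Mrps9, a protein of the small subunit head (1.04 ± 0.30, adjusted p = 0.0194), named after its value was seen. The count was 8 to 10 without any 1 of Asxl1 KO 1, Asxl1 KO 2, Dnmt3a KO 2, Dnmt3a KO 3 or Tet2 KO 3, and 9 with upper quartile scaling. From run 1 to run 3, 4 of 77 genes rose and 0 fell, and the median was 0.30. Both shares lay below those of all tested genes, 5.78% called higher and 7.76% lower. The 4 were Mrps9 (1.35 ± 0.31, adjusted p = 0.00478), Mrpl9 (0.91 ± 0.26, 0.0193), Mrpl55 (1.98 ± 0.58, 0.0245) and Mrpl57 (0.96 ± 0.29, 0.0289). DESeq2 called 14 of the 77 from run 1 to run 3 (18.2%, against 19.6% of all genes), 23 from run 1 to run 2 (29.9%, against 20.9%) and 33 from run 2 to run 3 (42.9%, against 17.3%). The edgeR count for run 3 against run 1 was 1 without Asxl1 KO 1, 2 without Asxl1 KO 3 or Dnmt3a KO 4, and 8 without Dnmt3a KO 3.

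Mrps9 thus stood apart by its calls only. Mean levels of Mrpl9 (42.8, 62.2 and 74.6 CPM in runs 1, 2 and 3) and Mrpl24 (30.9, 50.1 and 55.2 CPM) were also lowest in run 1. Mrps9 was at 13.5 CPM in Rosa KO 1, 17.9 in Asxl1 KO 1 and 27.6 and 27.1 in Dnmt3a KO 1 and 2, the libraries of run 1. In run 2 it was at 46.0 in Asxl1 KO 2, 49.2 and 43.9 in Dnmt3a KO 3 and 4 and 32.1 and 49.3 in Tet2 KO 1 and 2, all above run 1. Run 3 held 18.5 CPM in Rosa KO 2 and 37.2 to 83.5 CPM in the other 7 libraries. Mrps9 is the 1 gene of the 77 called higher in both later runs than in run 1. Without Asxl1 KO 1 no gene of the 77 was called higher in run 2 than in run 1, Mrps9 included.

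**Figure D4:**
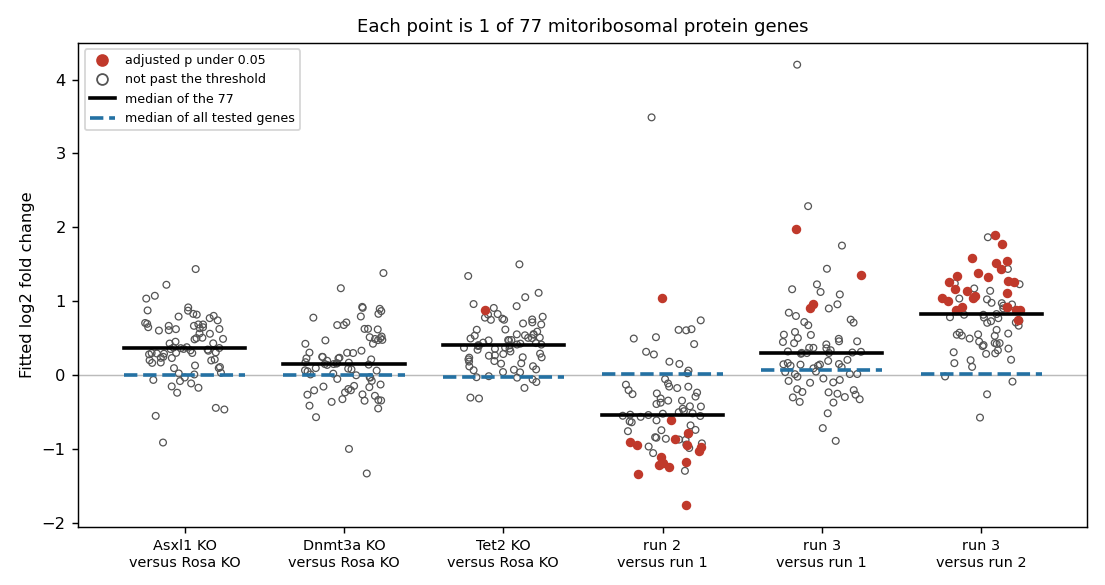
Fitted log2 fold change (vertical axis) of each of the 77 genes in 3 comparisons of a knockout with Rosa KO and 3 comparisons of runs, filled where the adjusted p passed, with the median of the 77 (solid bar) and of all tested genes (dashed bar). Mrpl33 is the 1 filled point among the knockout comparisons, whereas run 3 against run 2 has 26.

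By role, the proteins of the stalk and the factor-binding region gave no call in a knockout. Mrpl12, which forms the flexible stalk that recruits translation factors, was at 0.69 ± 0.36 in Asxl1 KO, −0.21 ± 0.42 in Dnmt3a KO and 0.82 ± 0.36 in Tet2 KO (log2 fold change ± SE, edgeR adjusted p from 0.334 to 0.951). Its anchor Mrpl10 was at 0.83, 0.16 and 0.54 (adjusted p from 0.203 to 0.959) and Mrpl11, at the base of the stalk, at 0.35, 0.52 and 0.47 (0.726 to 0.827). Mrpl11 rose from run 2 to run 3 (1.34 ± 0.38, adjusted p = 0.0183), while Mrpl12 at 1.03 ± 0.35 (0.0581) and Mrpl10 at 0.55 (0.333) did not pass. Of the small subunit proteins around the decoding site and the entry of the messenger RNA, Mrps12 was at −0.03, 0.05 and 0.29 and Mrps5 at 0.11, −0.34 and −0.32 in Asxl1 KO, Dnmt3a KO and Tet2 KO, none of which passed. Mrps12 rose from run 2 to run 3 by the edgeR test (1.43 ± 0.35, adjusted p = 0.00809), from 7.19 to 14.02 CPM in the run 2 libraries to 17.5 to 35.2 CPM in run 3, with no overlap.

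The S18 proteins exist in 3 versions that occupy different places in the ribosome. Mrps18a, of the large subunit, had log2 fold changes of 0.01, −0.19 and 0.16 in Asxl1 KO, Dnmt3a KO and Tet2 KO. Mrps18b, of the small subunit, had −0.24, 0.47 and 0.61. Mrps18c, which the symbol rule leaves out because of its letter, had 0.46, 0.17 and 0.54, and none of these values passed. Mrps30, also a protein of the large subunit, was at 0.02, 0.50 and 0.59, and Mrps6 at 0.88, 0.91 and 0.40, again without a call. Mrps6 shares its locus with Slc5a3. Mrps36 was at 0.50 in Asxl1 KO and 0.47 in Dnmt3a KO.

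Other genes of mitochondrial translation gave no call in any knockout against Rosa KO. For 6 further mitoribosome subunits without a symbol that fits the rule (Dap3, Ptcd3, Chchd1, Aurkaip1, Gadd45gip1 and Mrps18c) the medians were 0.21 in Asxl1 KO, −0.09 in Dnmt3a KO and 0.39 in Tet2 KO, with 0 called. Among 12 translation factors the medians were 0.04, −0.11 and 0.13. The elongation factor Tufm was at 0.51 ± 0.32, 0.04 ± 0.38 and 0.55 ± 0.35 (edgeR adjusted p from 0.465 to 0.988). Among 22 genes that charge mitochondrial tRNAs, 19 synthetases and the amidotransferase subunits Qrsl1, Gatb and Gatc, the medians were −0.17, −0.03 and −0.09, and among 28 assembly and rRNA processing genes −0.00, −0.09 and −0.11. Among 10 genes of mitochondrial transcription and RNA stability they were −0.02, 0.03 and 0.17, with the mitochondrial transcription factor Tfam at 0.13, −0.22 and 0.18 and the RNA stability factor Lrpprc at 0.06, −0.06 and 0.19. Thus the ribosomal proteins had higher medians than the factor, tRNA charging and assembly lists in both Asxl1 KO and Tet2 KO, a description with no test of the difference.

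Between runs some members of these lists passed, to be read against all tested genes (6.49% higher and 5.57% lower from run 2 to run 3, 7.09% and 8.46% from run 1 to run 2). From run 2 to run 3, 1 of 6 further subunits rose (Aurkaip1, 1.20 ± 0.27, edgeR adjusted p = 0.00414) and 1 of 12 translation factors fell (the recycling factor Gfm2, −1.001 ± 0.22, 0.00324). In the same comparison 1 of 22 tRNA charging genes (Lars2, 1.04 ± 0.25, adjusted p = 0.00805) and 2 of 28 assembly genes (Ybey and Fastkd2) rose. Lars2 stood at 429 to 2032 CPM, far above every other gene of its list, and which reads make up its count was not tested. From run 1 to run 2, 3 translation factors rose (Gfm2, Guf1 and Mtfmt), as did Pnpt1, a mitochondrial RNA-degrading enzyme (1.66 ± 0.23). In that comparison 3 tRNA charging genes rose (Hars2, Wars2 and Cars2) and 3 fell (Lars2, Kars and the amidotransferase subunit Gatc), while the subunit gene Ptcd3 and the assembly gene Trub2 rose and the assembly gene Ddx28 fell. Of 10 nuclear regulators of mitochondrial biogenesis, none passed in a knockout against Rosa KO. Nrf1 was at −0.45, −0.01 and −0.18, Gabpa at −0.26, −0.20 and −0.17, and Myc at −0.02, 0.13 and 0.40 in Asxl1 KO, Dnmt3a KO and Tet2 KO. Myc, a transcription factor of growth, fell from run 1 to run 2 by 1.22 ± 0.26 on the log2 scale (SE, edgeR adjusted p = 0.0018).

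Genes of the cytosolic ribosome and of the respiratory chain were set beside these as the nearest comparison. Of 82 tested cytosolic ribosomal protein genes, 35 rose in Tet2 KO, 6 in Asxl1 KO and 0 in Dnmt3a KO, with medians of 0.59, 0.37 and 0.34. Of 80 nuclear subunits of oxidative phosphorylation, 8, 6 and 0 rose, with medians of 0.54, 0.47 and 0.22. The mitochondrial ribosomal proteins, with 1, 0 and 0 called and medians of 0.41, 0.37 and 0.16, thus had fewer calls than either list in Tet2 KO, and a test of that difference was not made. From run 2 to run 3, 79 of the 82 and 58 of the 80 rose, with medians of 1.16 and 1.07 against 0.83.

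Exonic length moved with all of these values. The median exonic length of the 77 genes was 1398 bases and that of tested genes 3162 bases. These lengths join all annotated transcripts and can exceed the gene body, as for Mrps26 (4278 bases), so some genes may sit in too long a class. From run 2 to run 3 the median log2 fold change of all tested genes was 0.86 under 1 kb, 0.48 from 1 to 2 kb, 0.08 from 2 to 4 kb and −0.30 at 4 kb or more. In the same order of length the mitochondrial ribosomal protein genes had medians of 1.11 (21 genes), 0.76 (30), 0.83 (15) and 0.41 (11). Under 1 kb 26.4% of all tested genes were called higher, as were 11 of the 21 genes. In Tet2 KO against Rosa KO all tested genes had 0.29, 0.23, 0.00 and −0.15, and the 77 genes had 0.56, 0.36, 0.47 and 0.24. In Asxl1 KO the values were 0.21, 0.20, 0.02 and −0.12 for all tested genes and 0.65, 0.36, 0.20 and 0.30 for the 77. In Dnmt3a KO they were 0.14, 0.13, 0.01 and −0.08, and 0.21, 0.17, 0.15 and 0.09. In these 4 comparisons the 77 genes had the higher median at every length. From run 1 to run 3 they had the lower median under 1 kb (0.36 against 0.60) and from 1 to 2 kb (0.30 against 0.34), and the part of length in the single values was not tested.

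**Figure D5:**
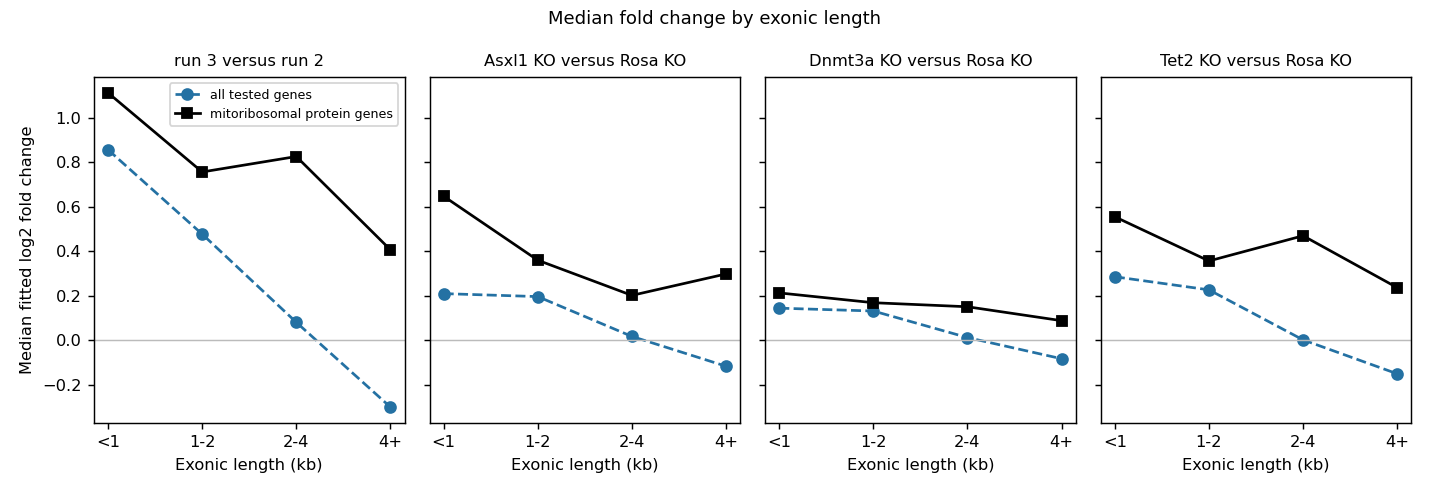
Median fitted log2 fold change (vertical axis) by exonic length in kb (horizontal axis) for all tested genes (dashed) and the 77 mitochondrial ribosomal protein genes (solid) in 4 comparisons. The dashed line falls with length in each panel, and the solid line lies above the dashed one in each panel.

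Markers of proliferation and of other cells moved with some of these groups. The B cell markers entered a fit as a covariate, and the part of the other markers was not tested. The 18 proliferation genes had fold changes above 0 in all 3 knockouts against Rosa KO, with medians of 0.74 in Asxl1 KO, 0.70 in Dnmt3a KO and 0.95 in Tet2 KO, where 5 rose. Their summed level in run 3 was 1844 to 2255 CPM in Rosa KO, 3771 and 4198 CPM in Tet2 KO and 2280 and 2407 CPM in Asxl1 KO. From run 2 to run 3, 7 of the 18 rose and from run 1 to run 2 8 fell. Of the 10 T cell markers, most of them not particular to CD8 T cells, 5 rose in Asxl1 KO, with a median of 0.57. Their run 3 sums were 8207 and 8575 CPM there and 5093 to 5709 CPM in Rosa KO. The run 3 sums of 5 CD4 T cell markers were 172 and 211 CPM in Asxl1 KO and 122 to 145 CPM in Rosa KO. In Tet2 KO they were 104 and 122 CPM. The B cell sum in run 3 was 3771 to 4059 CPM in Rosa KO, 3434 and 3584 CPM in Tet2 KO and 866 and 913 CPM in Asxl1 KO. In run 1 it was 758 CPM in Rosa KO, 1302 CPM in Asxl1 KO and 3012 and 3101 CPM in Dnmt3a KO. Asxl1 KO 1, the library with the highest sum of ribosomal protein genes in run 1, also had the highest sum of the 10 T cell markers (12576 CPM). Its sum of erythroid and platelet genes was the highest too (2980 CPM, against 27.5 to 730 CPM in the other libraries). Adding the mean of the B cell markers as a covariate left Mrpl33 called in Tet2 KO. Sums of 10 myeloid genes ran from 204 to 1497 CPM, with Tet2 KO 2 lowest and Rosa KO 1 highest, and in run 3 they were 699 and 716 CPM in Asxl1 KO and 1002 to 1334 CPM in Rosa KO.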

How the data were processed

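RNA-seq was done on 17 libraries of mouse CD8 T cells. The RNA was isolated with a Direct-zol kit and made into stranded total RNA libraries (TruSeq), per the labels' protocols. The labels' molecule is genomic DNA, against their RNA protocol. Each library has 1 file of raw counts, deposited by the authors, for 24594 genes. Per the submitters' processing notes, mm10, DESeq2 1.26.0 and STAR 2.5.3a were used, in roles they leave unstated. Which tool and annotation gave the counts, and whether strand was used, is not given in the sources used here, and 21 of the 77 genes overlap another gene's body.

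From the counts, edgeR 4.0.16 in R 4.3.3 fitted group and run by a robust quasi-likelihood F test with TMM scaling over all 17 libraries (11 residual degrees of freedom, common biological coefficient of variation 0.604). Genes below filterByExpr's limits (minimum count 10, total 15) were dropped, leaving 13881, and a gene passed at a Benjamini-Hochberg adjusted p under 0.05. Total counts per library ran from 6625833 to 40701203. The edgeR step was tested on counts simulated for Asxl1 KO against Rosa KO. It recovered 37 of 100 genes changed 2-fold and 60 of 100 changed 4-fold, with 5 false calls. A gene that is not called can therefore still differ. Levels are TMM-scaled CPM. Coordinates and promoters came from RefSeq GRCm38.p6 and exonic lengths from GENCODE M21, for 13677 tested genes. No pair of libraries of the same group agreed within sampling noise over 28 pairs (chi-square per degree of freedom from 19.7 to 258).

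Alternatives were no run term, a replicate block, other scalings, DESeq2 1.42.0, no low-count filter, subsets of groups and runs, a B cell covariate and leaving out each library. The members, lists and naming rule were chosen with earlier results of these data known. The rule names, for each knockout against Rosa KO, the 6 genes with the smallest p (up to 12 if more passed), 4 for each other comparison, the 5 highest and 3 lowest by level, 11 genes by role, the targeted genes, and 7 pathway genes. Others are named with a remark or as members of a count.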

Additional observations from a re-analysis of the deposited data

Results flagged for a closer look

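In 13 of 152 groups of 4 or 5 libraries that were checked, 1 library lay far from the others by Dixon's criterion, where chance gives about 1 in 20 for libraries drawn alike. Each group spans runs, which that rate does not allow for. The summed level of the 77 genes was 1665 CPM in Asxl1 KO 2, the only Asxl1 KO library of run 2, against 3010 to 3175 CPM in the other 3. Mrps24 stood at 84.8 CPM in Asxl1 KO 1, against 11.9 to 23.7 CPM in the other Asxl1 KO libraries. Mrps12 was low in Asxl1 KO 2 at 7.83 CPM (20.1 to 21.8 CPM in the others), and Mrpl53 was high in Asxl1 KO 3 at 4.83 CPM (0 to 0.604 CPM).

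Dnmt3a KO 1 stood apart in Mrps7 at 42.2 CPM (11.5 to 16.5 CPM in the other Dnmt3a KO libraries), in Mrpl27 at 18.9 CPM (13.8 to 14.4 CPM) and in Mrpl9 at 39.8 CPM (59.7 to 62.5 CPM). Mrpl11 was low in Dnmt3a KO 3 at 7.70 CPM (15.2 to 16.5 CPM). In Rosa KO 2, Mrpl12 was at 51.0 CPM (18.6 to 24.0 CPM in the other Rosa KO libraries), Mrpl40 at 46.4 CPM (24.6 to 30.4 CPM) and Mrps34 at 8.62 CPM (2.20 to 3.32 CPM). Mrpl41 was at 52.5 CPM in Rosa KO 3 (20.9 to 26.7 CPM), and Mrps5 at 34.3 CPM in Tet2 KO 3 (19.9 to 21.4 CPM).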

How the results depend on the processing

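The count of called genes, small in the knockouts, moved with the settings, and where it did the cause was not tested. The share of all genes called is given above for DESeq2 only, so counts under the other settings have no such share beside them. Asxl1 KO against Rosa KO gave 2 by DESeq2 and 1 with no low-count filter. Dnmt3a KO against Rosa KO gave 1 by DESeq2. Tet2 KO against Rosa KO gave 0 with no run term, 0 with only the libraries of the 2 groups, 4 by DESeq2 and 2 with no low-count filter. Asxl1 KO against Dnmt3a KO gave 1 with no low-count filter. Run 2 against run 1 gave 9 with upper quartile scaling, run 3 against run 1 gave 14 by DESeq2 and 8 with no low-count filter, and run 3 against run 2 gave 16 with the B cell covariate. Leaving out 1 library gave 0 to 1 for Asxl1 KO, 0 to 2 for Tet2 KO, 8 to 19 for run 2 against run 1, 1 to 8 for run 3 against run 1 and 12 to 37 for run 3 against run 2, and 0 in the other comparisons.

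With the replicate number as a block, the count was 0 for Tet2 KO against Rosa KO (Mrpl33 0.88, adjusted p = 0.137), 0 for run 2 against run 1, 0 for run 3 against run 1 and 6 for run 3 against run 2. Deviations from group and run were correlated over 24 pairs of libraries of different groups with the same number. These correlations had a median of −0.04 and ran from −0.67 to 0.22. The fit of group and run itself sets part of them, so they cannot show whether same-numbered samples were paired.

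Some directions changed. With no run term the median log2 fold change was −0.28 for Dnmt3a KO against Rosa KO and 0.11 for Asxl1 KO against Tet2 KO, and Mrps23 in Dnmt3a KO against Rosa KO was at −0.0039. Leaving out 1 library moved the median for Asxl1 KO against Tet2 KO from −0.14 to 0.034, the latter without Asxl1 KO 2. With no scaling the sum in Asxl1 KO 1 was 1.46 times that of Rosa KO 1. With no run term the median was 0.16 for Tet2 KO against Rosa KO, 0.55 for Asxl1 KO against Dnmt3a KO and −0.52 for Dnmt3a KO against Tet2 KO. Within run 1 it was 0.65 for Asxl1 KO against Rosa KO and 0.47 for Asxl1 KO against Dnmt3a KO. Leaving out 1 library gave medians of 0.34 to 0.44 for Asxl1 KO, 0.039 to 0.22 for Dnmt3a KO and 0.38 to 0.45 for Tet2 KO against Rosa KO. Within run 1 Rosa KO and Asxl1 KO have 1 library each, and the spread comes from 1 pair of Dnmt3a KO libraries. Mrpl53 had no count in 2 libraries and Mrps34 in 1, all deeper than Rosa KO 5, which had counts of both.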
